A study of Mus musculus with 20 samples.

Results

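The forkhead genes encode transcription factors that share a DNA-binding domain, the forkhead box. The 39 genes listed were matched by symbol to RefSeq, and every 100 bp bin within 1 kb of any of their transcription start sites (TSS) was taken. This gave 627 forkhead promoter bins of the 1201951 bins in the series. DNA methylation was measured by reduced representation bisulfite sequencing (RRBS) in hematopoietic stem cells (HSCs) of C57BL/6 mice (C57BL/6 J by the study's methods), in 4 samples without 5-fluorouracil (0x), 6 samples after 2 cycles (2x), 4 after 4 cycles (4x) and 6 after 10 cycles (10x). 5-fluorouracil (5FU) is an antimetabolite that kills cycling cells, and quiescent HSCs are driven into division when the marrow regenerates. By the study's methods, the donors were female mice, 3 months old at the start, treated every 3 weeks, with HSCs sorted from the marrow 1 month after the last cycle, whereas the labels give the tissue as blood. The labels do not say that each sample was a separate mouse, so the p-values speak only to how far these samples differ from each other, and that spread can be technical.

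Forkhead factors take part in cell identity, the cell cycle and metabolism. Foxo factors such as Foxo1 and Foxo3 are held in the cytoplasm when the PI3K-Akt pathway is active and enter the nucleus when it is quiet. In HSCs, Foxo1 and Foxo3 are known for maintaining quiescence and limiting reactive oxygen species. Most other members act in embryonic tissues such as endoderm, mesoderm, neural crest, eye, ovary or ciliated epithelium and have no known role in HSCs. A methylated CpG island at a promoter usually goes with a silent gene, but an unmethylated one is common at silent developmental genes too.

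The members were sorted by role into 3 Foxo genes (Foxo1, Foxo3 and Foxo6), 26 developmental genes, 7 broadly expressed genes (Foxj2, Foxj3, Foxk1, Foxk2, Foxm1, Foxn2 and Foxn3) and 3 Foxp genes (Foxp1, Foxp2 and Foxp4). The deposited value is the percent methylation of a bin in a sample, without the reads behind it, so depth is unknown. The study's methods state that values missing from a bin were filled with the mean of the group. Filled values are not marked. A value other than 0 or 100 that occurred more than once within a group was therefore treated as repeated, and bins holding one are given apart. Of the 627 forkhead bins, 233 held a repeated value (37.2%, against 36.9% of all 186007 promoter bins). Of the other 394 bins, 95 held the same value in all 20 samples and 148 were constant at 0 or 100 in at least 1 group. The remaining 151 bins varied in every group. These 151 are called the tested bins, since they and the 84131 bins of the same kind genome-wide were compared between groups. They lay in the promoters of 36 genes, and Foxi1, Foxn1 and Foxs1 had none. In the other bins, a group fixed at 0 or 100 can be measured or filled, and the files do not tell which.

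The sequences below show the CpG content behind the values. Foxo3 and Foxo6 stand for the nearly unmethylated Foxo promoters, and Foxp1 for the sparse, methylated bins inside a gene body. Foxp4, Foxl2, Foxj1 and Foxa3 stand for bins whose values are discussed further on. Each is 1 bin of 100 bases of GRCm38 (mm10), read 5′ to 3′ on the strand of the gene, with CpG dinucleotides in capitals.
Foxo3, intron, chr10:42276400-42276499: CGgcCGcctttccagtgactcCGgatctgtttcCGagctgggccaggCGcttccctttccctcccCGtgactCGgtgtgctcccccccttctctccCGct
Foxo6, upstream, chr4:120287300-120287399: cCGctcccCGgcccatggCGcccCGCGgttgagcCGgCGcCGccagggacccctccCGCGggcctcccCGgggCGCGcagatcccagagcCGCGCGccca
Foxp4, intron of the longer transcripts, chr17:47924100-47924199: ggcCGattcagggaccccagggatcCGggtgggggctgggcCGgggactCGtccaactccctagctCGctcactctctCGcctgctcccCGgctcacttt
Foxp1, intron, chr6:99204100-99204199: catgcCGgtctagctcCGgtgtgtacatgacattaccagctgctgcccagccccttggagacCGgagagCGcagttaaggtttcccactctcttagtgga
Foxp1, intron, chr6:99203900-99203999: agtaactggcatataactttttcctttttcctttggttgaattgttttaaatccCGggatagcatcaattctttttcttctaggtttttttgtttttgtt
Foxl2, coding exon, chr9:98956100-98956199: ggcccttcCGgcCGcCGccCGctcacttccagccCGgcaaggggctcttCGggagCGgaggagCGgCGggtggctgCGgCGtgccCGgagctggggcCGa
Foxj1, coding exon, chr11:116334300-116334399: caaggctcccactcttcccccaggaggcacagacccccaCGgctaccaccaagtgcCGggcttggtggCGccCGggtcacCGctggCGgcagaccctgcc
Foxa3, intron, chr7:19023000-19023099: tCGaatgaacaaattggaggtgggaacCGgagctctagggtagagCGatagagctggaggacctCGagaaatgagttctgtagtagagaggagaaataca
The Foxo3 bin holds 8 CpGs and the Foxo6 bin 16, whereas the Foxp1 bins hold 4 and 1. Over the 151 tested bins the median was 10 CpGs a bin, against 9 in the 32880 tested bins of all promoters, and 98.0% held the MspI site CCGG from which RRBS fragments start, against 97.3%.

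Most forkhead promoter bins had low methylation in untreated HSCs. In 0x, 320 of the 394 bins without repeated values were under 10%, 42 lay from 10 to 90% and 32 at 90% or more. The bins at 0 in every sample numbered 68, in 29 genes, and those at 100 in every sample 27, in 10 genes. The promoter level of a gene, the mean of its tested bins, had a median of 4.44% over the 36 promoters in 0x, against 3.59% over the 14937 gene promoters measured in the same way. Of the 36, 31 were under 10% in 0x. Foxp1 was the highest at 34.9% ± 3.34 (SD, n = 4), followed by Foxa2, a pioneer factor of endoderm, at 14.4% ± 5.55 (SD, n = 4), and by Foxa3, Foxj1 and Foxd3 at 13.5, 12.2 and 10.9%.

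The highest levels belonged to 3 genes that had no tested bin. All 3 act outside the blood: Foxn1 in the thymic epithelium, Foxi1 in ion-transporting epithelial cells and Foxs1 in the mural cells of vessels. Of the 8 Foxn1 bins, 6 were at 100% in all 20 samples, and the other 2 lay at 89.2% and 98.9% in 0x. The 9 Foxs1 bins had 0x means from 82.7 to 100%. The 3 Foxi1 bins, all in coding sequence and all with repeated values, had 0x means of 93.4, 100 and 100%. Foxp1, Foxn1 and Foxs1 held most of the methylated forkhead bins. Of the 32 bins at 90% or more in 0x, 11 belonged to Foxp1, 6 to Foxn1 and 6 to Foxs1. These 32 bins had a median of 2 CpGs, and the 320 bins under 10% a median of 9.

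**Figure D1:**
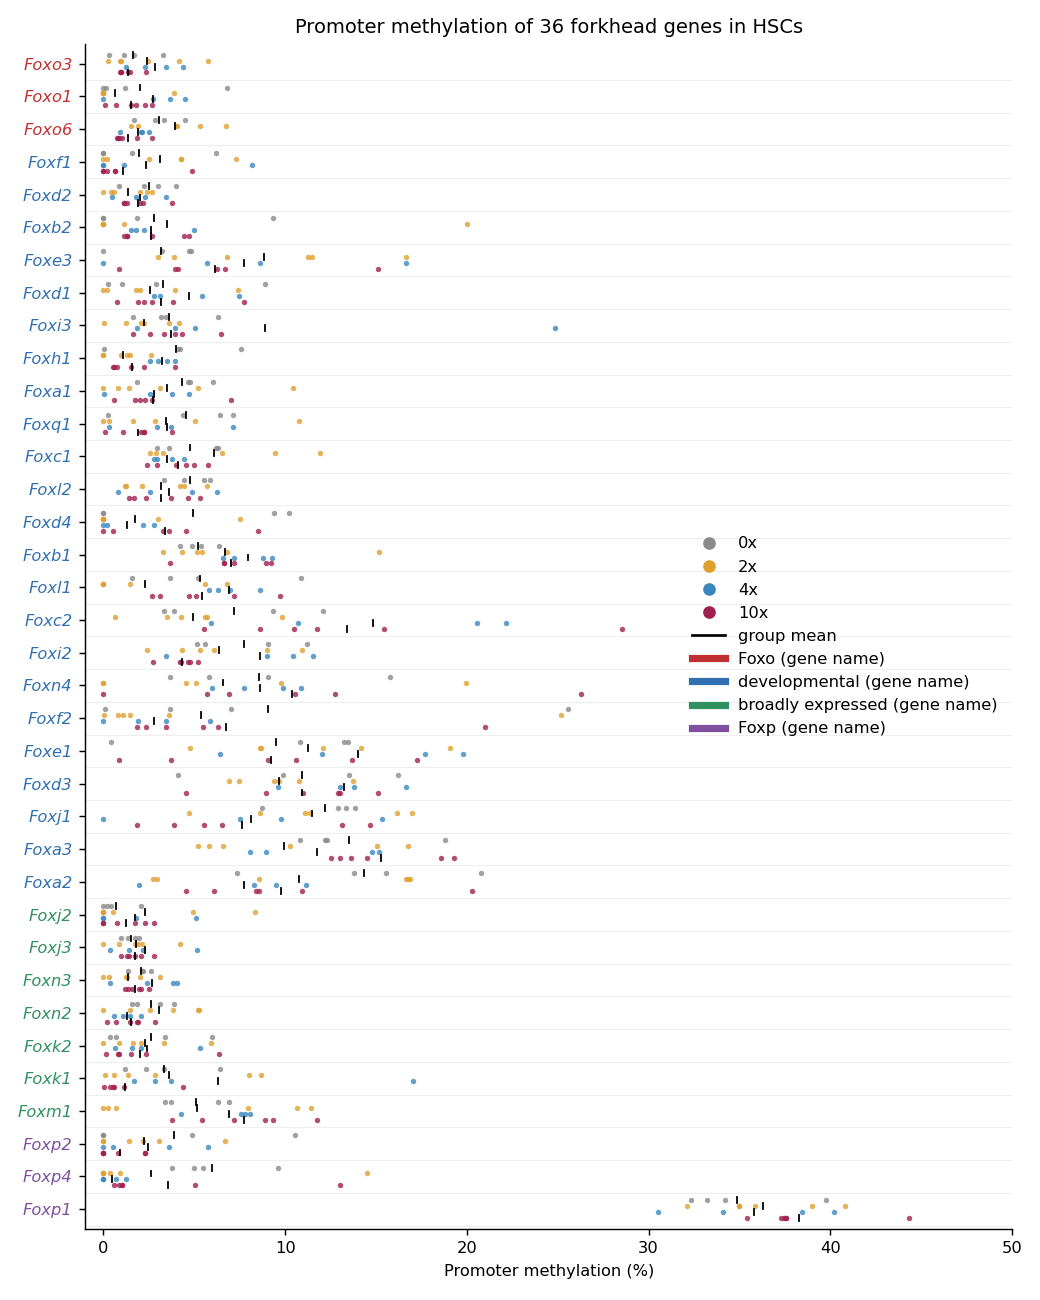
Promoter methylation in percent (x axis) of the 36 forkhead genes with tested bins, 1 row a gene, with each point a sample coloured by 5FU group and each black tick a group mean. The 0x group means of all genes but Foxp1 lie at or under 14.4%, and the 4 groups of points overlap in most rows.

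Taken separately, the bins closest to the TSS and the bins with the most CpGs had the lowest means. In 0x, the 61 tested forkhead bins within 250 bp of a TSS averaged 3.74%, the 37 bins from 250 to 500 bp 10.3% and the 53 bins from 500 to 1000 bp 7.88%. All tested promoter bins gave 9.74%, 14.6% and 27.2% at the same distances. The medians of the forkhead bins differed less, at 2.52, 3.20 and 3.71%. The 78 forkhead bins with 10 or more CpGs averaged 3.48%, the 44 bins with 6 to 9 CpGs 5.61%, the 21 with 3 to 5 CpGs 14.1% and the 8 with at most 2 CpGs 26.3%. By annotation, the 32 bins in untranslated or non-coding exons averaged 3.92%, the 54 in coding exons 5.88%, the 43 upstream 6.45% and the 22 in introns 13.9%. The medians in the same order were 2.63, 3.72, 2.97 and 2.01%. The intron bins were thus highest by mean and lowest by median.

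**Figure D2:**
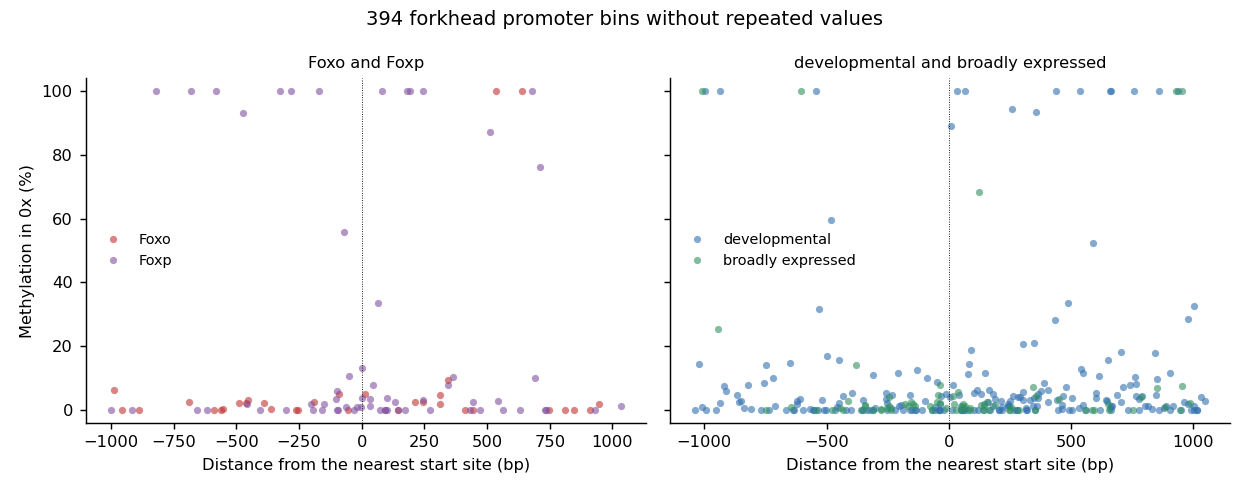
Methylation in 0x in percent (y axis) against the distance of the bin's centre from the nearest TSS in bp (x axis, negative upstream), for the 394 forkhead bins without repeated values, coloured by role. Foxo bins lie near 0 except for 2 bins at 100%, and the Foxp bins at 76% and above belong to Foxp1 and Foxp2.

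The Foxo promoters lay at the low end. Foxo1 had 1 tested bin, in the untranslated first exon (chr3:52268600-52268699, 16 CpGs). It was at 0, 1.20, 0.134 and 6.81% in the 0x samples 01, 02, 13 and 14. In 2x it was at 0 in 5 of 6 samples and at 3.87% in the other. The 4x samples were at 0, 2.71, 4.48 and 3.65%, and the 10x samples ranged from 0.0684 to 2.67% with a median of 1.64%. All groups overlapped. The difference of 10x minus 0x was -0.540 points (SE 1.38, limma's adjusted p = 0.950), and it was 1.05 points without 0x sample 14.

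Foxo3, the Foxo factor best known for HSC maintenance, had 5 tested bins. Their mean was 1.70, 0.329, 1.15 and 3.26% in the 0x samples. In 2x it ranged from 0.251 to 5.74% with a median of 1.71%, in 4x the 4 samples were at 4.36, 3.46, 2.30 and 1.24%, and in 10x the range was 0.884 to 2.35% with a median of 1.17%. The groups overlapped here too. The difference of 10x minus 0x was -0.279 points (SE 0.766, limma's adjusted p = 0.952), and it was 0.271 points without 0x sample 14. In 1 of the 5 bins, 145.5 bp past the TSS, the 4x samples lay above all 0x samples: 1.53 to 6.08% in 4x and at most 0.157% in 0x, with limma's adjusted p = 0.975.

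Foxo6, which is expressed mainly in the brain, had 7 tested bins. Their mean was 2.83, 4.48, 3.31 and 1.70% in 0x and ranged from 0.764 to 2.70% with a median of 0.948% in 10x. The difference of 10x minus 0x was -1.75 points (SE 0.794, limma's adjusted p = 0.824), and the samples overlapped. The slope over the 4 groups was -0.229 points per cycle (SE 0.0908, limma's adjusted p = 0.982). A pair of intronic Foxo6 bins, 537.5 and 637.5 bp past the gene's other TSS, were at 100% in every sample and hold 2 and 1 CpGs.

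Set against the developmental members, the Foxo bins were lower in each of the 20 samples. The 13 tested Foxo bins averaged 2.43% ± 0.265 (SD, n = 4) in untreated HSCs, and the 98 tested developmental bins 7.28% ± 0.601 (SD, n = 4). The Foxo bins held more CpGs, with a median of 13 against 9.5 and none under 7. Among bins with 10 or more CpGs, the 0x means were 2.78% for 9 Foxo bins and 4.18% for 49 developmental bins. Among bins with 6 to 9 CpGs they were 1.65% for 4 Foxo bins and 7.04% for 30 developmental bins. The broadly expressed genes, at 2.79% ± 0.493 (SD, n = 4) over 32 bins, lay near the Foxo genes.

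After 10 cycles the mean of the Foxo bins was lower than in any untreated sample, mostly through Foxo6. The 0x samples 01, 02, 13 and 14 were at 2.18, 2.63, 2.24 and 2.69%, and the 6 samples of 10x ranged from 0.770 to 2.00% with a median of 1.31%. The difference was -1.09 points, with 11 of the 13 bins lower in 10x and 2 higher. The 7 Foxo6 bins, all lower, made up 86.3% of the summed difference. The 6 bins of Foxo1 and Foxo3 differed by -0.323 points, with 4 lower, and their mean overlapped between 0x (0.474 to 3.85%) and 10x (0.748 to 2.21%). The developmental bins differed by -0.442 points, with 52 of 98 lower. All 32880 tested promoter bins gave 0.123 points, with 16232 lower. In 2x the Foxo mean ranged from 1.76 to 4.40%, around the 0x values, and in 4x from 1.91 to 2.67%. None of the 13 Foxo bins had an unadjusted p under 0.05 in 2x, 4x or 10x. Over the wider sets of bins the 10x difference shrank or changed sign. It was -0.356 points in all 33 Foxo bins without repeated values and 1.24 points in the 22 Foxo bins with repeated values.

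**Figure D3:**
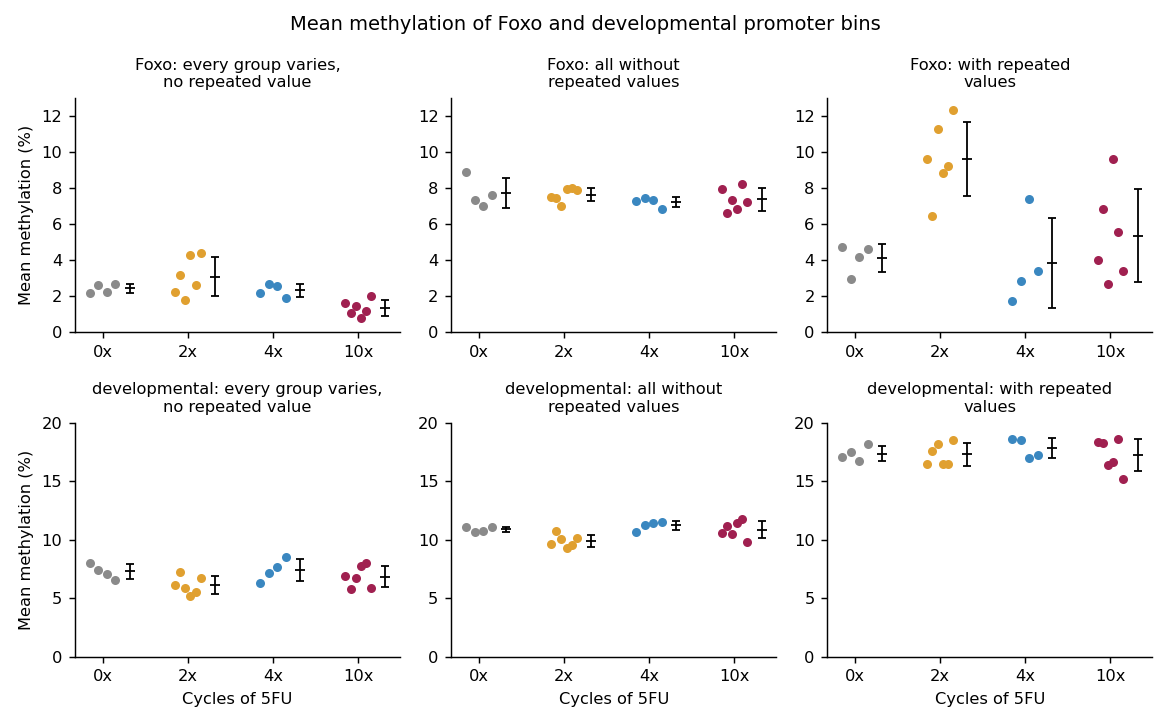
Mean methylation in percent (y axis) of the Foxo bins (top) and developmental bins (bottom) in each sample by 5FU group (x axis), in the tested bins (left), all bins without repeated values (middle) and the bins with repeated values (right). Points are samples and bars the mean and SD of the group. The 10x Foxo samples of the left panel, 0.770 to 2.00%, lie under the 0x samples, which is not so in the other panels.

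Over all forkhead bins the groups differed little. The 151 tested bins averaged 6.79% ± 0.468 (SD, n = 4) in 0x, 6.11% ± 0.62 (SD, n = 6) after 2 cycles, 7.03% ± 0.834 (SD, n = 4) after 4 and 6.45% ± 0.700 (SD, n = 6) after 10. The differences from 0x were -0.681, 0.237 and -0.336 points, of which that of 4x was -0.116 without 4x sample 20, and 80, 74 and 81 of the 151 bins were lower. Single samples overlapped in all 3 comparisons, which share the 0x samples. The share of values at exactly 0 moved with the group. From 0x to 10x the share ran 33.9, 56.0, 33.4 and 27.4%, and over all tested promoter bins 36.8, 52.0, 33.1 and 28.7%. Its part in the differences was not tested.

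No forkhead bin passed the test in any comparison. Bins were called at limma's adjusted p under 0.05 and a difference of at least 10 points. Of the 84131 tested bins genome-wide, the test called 0.00357%, 0.00713% and 0.0131% after 2, 4 and 10 cycles, and 0.00119% for the slope over cycles. None of the 36 forkhead promoters was called either. Of the 14937 gene promoters, 0.0335% were called after 10 cycles and 0% in each of the other comparisons. At an unadjusted p under 0.05 and at least 10 points, 2 of the 151 forkhead bins passed after 2 cycles (1.32%), and 3 passed in each other comparison (1.99%). The genome-wide shares were 2.86%, 2.85%, 4.18% and 2.23%. Those within promoters were 1.57%, 1.61% and 2.1% after 2, 4 and 10 cycles, near the forkhead shares. Of the 36 forkhead promoters, 0, 2, 1 and 1 had an unadjusted p under 0.05, against 3.27%, 3.78%, 6.12% and 3.74% of all gene promoters. The smallest adjusted p of a forkhead bin was 0.305, in 10x.

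**Figure D4:**
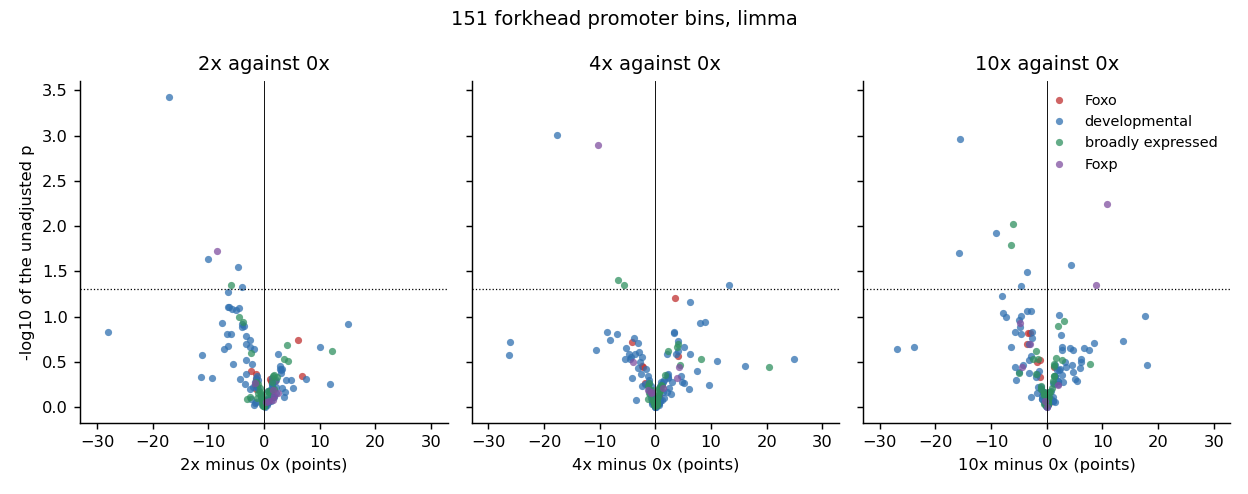
Difference from 0x in percentage points (x axis) and -log10 of limma's unadjusted p (y axis) of the 151 tested forkhead bins in 2x, 4x and 10x, coloured by role. The dotted line marks an unadjusted p of 0.05. The bin farthest up in each panel, between -15.5 and -17.7 points, is the same bin of Foxa3, and no Foxo bin lies above the line.

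The bin that stood out most belonged to Foxa3, a pioneer factor of liver and gut endoderm. It lies 89.5 bp past the TSS, across the start of the coding sequence (chr7:19023400-19023499, 4 CpGs). In the 0x samples 01, 02, 13 and 14 it was at 20.2, 13.4, 14.2 and 27.3%. In 2x it was at 0 in 4 samples and at 8.33 and 1.48% in the others. The 4x samples were at 0 in 3 and at 4.17% in the other, and the 10x samples ranged from 0 to 11.3% with a median of 1.17%. Every treated sample lay below every 0x sample. The differences were -17.1 points in 2x (SE 3.14, limma's adjusted p = 0.381), -17.7 in 4x (SE 3.34, adjusted p = 0.803) and -15.5 in 10x (SE 3.34, adjusted p = 0.305), all against the same 4 samples. Within the samples numbered 01 to 12 the 10x difference was -16.8 points, and within those numbered 13 to 34 it was -15.9. The 2x difference passed when the spread was shared by all 4 groups (limma's adjusted p = 0.0422, where 0.0321% of all tested bins passed), in both wider sets described further on and over all deposited bins that vary (adjusted p = 0.00231). Over all those bins the 4x and 10x differences passed too (adjusted p = 0.00995 and 0.0118).

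The bins beside it did not repeat the separation of the samples. The bin 100 bp upstream was also lower in each treated group, but its samples overlapped. It averaged 4.89% in 0x and 1.25, 2.13 and 1.27% in 2x, 4x and 10x. The bin 100 bp further into the gene averaged 3.57% in 0x and 8.08% in 10x. Deeper in the first intron, 489.5 bp past the TSS, Foxa3 was partly methylated. There the 0x samples were at 52.7, 45.1, 32.9 and 4.17%, and 10x ranged from 38.5 to 70.1% with a median of 52.4%. The slope of that bin was 2.45 points per cycle (SE 1.12, limma's adjusted p = 0.975).

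Among the other developmental members, Foxd3 and Foxe3 each had a bin in which 1 treated group lay wholly above 0x. Foxd3, a regulator of pluripotent and neural crest cells, was at 6.19, 0, 0 and 5.76% in 0x in a bin of the untranslated exon, 250.5 bp past the TSS. The 4x samples were at 7.93, 7.11, 19 and 31%, a difference of 13.3 points (SE 5.49, limma's adjusted p = 0.975). It was 8.35 points without 4x sample 20, and 4.43 points within the samples numbered 01 to 12 against 22.1 in the others. In 10x the same bin overlapped with 0x, at 0 to 17.1% with a median of 4.34%. Foxe3, a lens factor, was at 0, 2.44, 1.72 and 0% in 0x in a coding bin, 217.5 bp past the TSS, and at 2.51 to 9.40% with a median of 5.70% in 10x, a difference of 4.29 points (SE 1.63, limma's adjusted p = 0.717). The bins beside it did not share the rise. The bin 117.5 bp past the TSS, which holds repeated values, was at 9.44 to 15.2% in 0x and lower, at 2.79 to 8.36%, in 10x. The bin on the other side averaged 0.549% in 0x and 0.0941% in 10x.

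Lower values were found in Foxj1, Foxl2 and Foxa2. Foxj1, the master regulator of motile cilia, was at 32.1, 24.1, 33.8 and 40% in 0x in the coding bin printed above. In 10x that bin ranged from 4.21 to 35.8% with a median of 16.2%, a difference of -15.8 points (SE 5.64, limma's adjusted p = 0.667). Of the 6 samples, 5 lay below all of 0x. The bin 100 bp further into the gene, outside the promoter window, averaged 23.8% in 0x and 23.4% in 10x. The bin on the other side, which holds repeated values, averaged 34.4% in 0x and was at 0 throughout 10x. Foxl2, an ovarian granulosa cell factor, was at 16.5, 10.6, 10.1 and 14.4% in 0x and at 0 to 13.1% with a median of 1.60% in 10x, a difference of -9.07 points (SE 2.91, limma's adjusted p = 0.592). Its 2x samples ranged from 0 to 34.6%, on both sides of 0x. The Foxa2 bin 614.5 bp past the TSS was at 6.00, 0, 18.2 and 18.5% in 0x and at 0 in 4 of 6 samples in 2x, with a highest value of 3.45%. The difference was -10.0 points (SE 3.69, limma's adjusted p = 0.998). Among the samples numbered 13 and above it was -17.5 points, and among the others -2.78.

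The widest spreads among untreated samples, by which these promoters were chosen, belonged to Foxf2, Foxa2 and Foxe1. Foxf2, a mesenchymal factor of vessels and gut, had the widest 0x range of the 36 promoters, at 0.0903, 7.01, 3.67 and 25.5%. A single bin in its coding exon made this range: it was at 100% in 0x sample 14 and at 0, 12.8 and 0% in the other three. Foxa2 was at 13.8, 20.8, 7.32 and 15.5% in 0x. Foxe1, a thyroid factor, was at 13.4, 13.3, 10.8 and 0.407%. The Foxa2 bin at -480.5 bp from a TSS ranged from 22.6 to 100% in 0x and from 0 to 100% in 2x, where 3 samples were at 100 and 2 at 0.

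Over the 23 developmental promoters with tested bins, 17 were lower than in 0x after 2 cycles, 12 after 4 and 15 after 10. The medians of these differences were -1.26, -0.164 and -0.587 points, against 0.226, -0.0871 and -0.0103 over all gene promoters. Foxb1, active in the developing brain, was the only promoter of the 36 whose 4x samples all lay above 0x, at 6.58 to 9.27% against 4.23 to 6.34% (2.75 points, SE 1.01, limma's adjusted p = 0.976), as did those of 1.21% of all gene promoters. Foxc2, needed for lymphatic vessels, had the largest positive difference in 10x, from 7.16% ± 4.26 (SD, n = 4) to 13.4% ± 8.11 (SD, n = 6), with overlapping samples and limma's adjusted p = 0.860. Without 10x sample 32 the difference was 3.22 points against 6.24 with it. Foxi2 was the promoter with an unadjusted p under 0.05 in 10x, at 4.31% ± 0.862 (SD, n = 6) against 7.75% ± 2.90 (SD, n = 4), with limma's adjusted p = 0.71. That difference of -3.44 points was -2.29 without 0x sample 02. The other developmental promoters, Foxa1, Foxb2, Foxc1, Foxd1, Foxd2, Foxd4, Foxf1, Foxh1, Foxi3, Foxl1, Foxn4 and Foxq1, had 0x means from 1.94 to 8.58%, and none of their comparisons had an adjusted p under 0.852.

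The broadly expressed genes were low and showed no shared direction. The 7 promoters had 0x means from 0.665% for Foxj2 to 5.10% for Foxm1, which drives entry into mitosis. In 10x, 3 were higher and 4 lower than in 0x, by 2.62 points at most. Foxk1, a factor of metabolism and autophagy, had an intronic bin 852.5 bp past the TSS at 12.2, 6.54, 8.66 and 0% in 0x. Its 4x samples were at 0, 0.341, 0.332 and 0%, a difference of -6.68 points (SE 2.67, limma's adjusted p = 0.975). In 10x it was at 0 in 5 of 6 samples. The next bin, 100 bp further in, went the other way in 4x, with a mean of 28.0% and samples from 0 to 93.3%. Foxn2 had a bin in the untranslated exon, 345.5 bp past the TSS, at 11.3, 1.80, 7.88 and 7.29% in 0x and at 0 to 3.39% with a median of 0.130% in 10x, and its slope was -0.440 points per cycle (SE 0.183, limma's adjusted p = 0.975). Foxj3, Foxk2 and Foxn3 stayed between 0 and 6.34% in every sample.

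Foxp4, a repressor of the Foxp subfamily, had a bin directly upstream of a TSS (-50.5 bp, 7 CpGs) at 7.55, 9.21, 11 and 15.1% in 0x. All 4 samples of 4x lay below, at 0 in 3 and 1.84% in the other, a difference of -10.3 points (SE 2.02, limma's adjusted p = 0.839). In 2x, 4 samples were at 0, 1 at 1.82% and 1 at 12.3%, and in 10x the range was 1.11 to 24.8% with a median of 2.05%. In both of these groups a single high sample overlapped with 0x. The bin on the upstream side averaged 1.88% in 0x and the bin on the other side 1.21%, so neither shared the 0x level. As a promoter, Foxp4 was at 5.96% ± 2.53 (SD, n = 4) untreated and at 0.484% ± 0.610 (SD, n = 4) after 4 cycles, without overlap (limma's adjusted p = 0.976), as was so for 0.977% of all gene promoters in that direction. Foxp2, a factor of brain and lung, had 1 tested bin, at 0, 10.5, 0 and 4.90% in 0x and at most 6.67% in any treated sample.

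Foxp1, a factor of lymphocyte quiescence and B cell development, has 29 annotated TSS spread over its gene body, and its 66 bins fell into 9 clusters. In the clusters at both ends of the gene, which hold curated transcripts, the bins without repeated values averaged 2.40% and 2.66% in 0x. In 2 clusters around predicted TSS inside the gene, all bins without repeated values were at 100% in every sample. The other intragenic clusters with such bins lay between these, from 14.7 to 83.0%. The cluster at 14.7% ± 18.9 (SD, n = 4) also holds curated transcripts. It averaged 0, 4.28 and 0.808% in 2x, 4x and 10x. The promoter level of 34.9% rests on the 5 tested bins alone. Of these, 2 and 1 lie in the clusters at the ends of the gene. The other 2 lie in 1 intragenic cluster and averaged 76.1 and 87.3% in 0x. The clusters at 100% held no tested bin and do not enter that level.

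The 2 tested Foxp1 bins of that intragenic cluster had higher means in 10x than in 0x. The bin with 4 CpGs was at 96.0, 85.1, 86.7 and 81.2% in 0x, and in 10x 4 samples were at 100% and the other 2 at 91.1 and 97.3%. The difference was 10.8 points (SE 3.02, limma's adjusted p = 0.491), and within the samples numbered 01 to 12 it was 3.68 points against 16 in the others. The bin with a single CpG was at 77.2, 77.8, 75.4 and 74.2% in 0x and at 80.5 to 100% with a median of 81.5% in 10x, with every 10x sample above 0x (8.77 points, SE 3.78, limma's adjusted p = 0.786). Without 10x sample 32 the difference was 5.76 points. The slopes were 1.11 and 0.942 points per cycle (SE 0.496 and 0.362, limma's adjusted p = 0.975 for both).

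**Figure D5:**
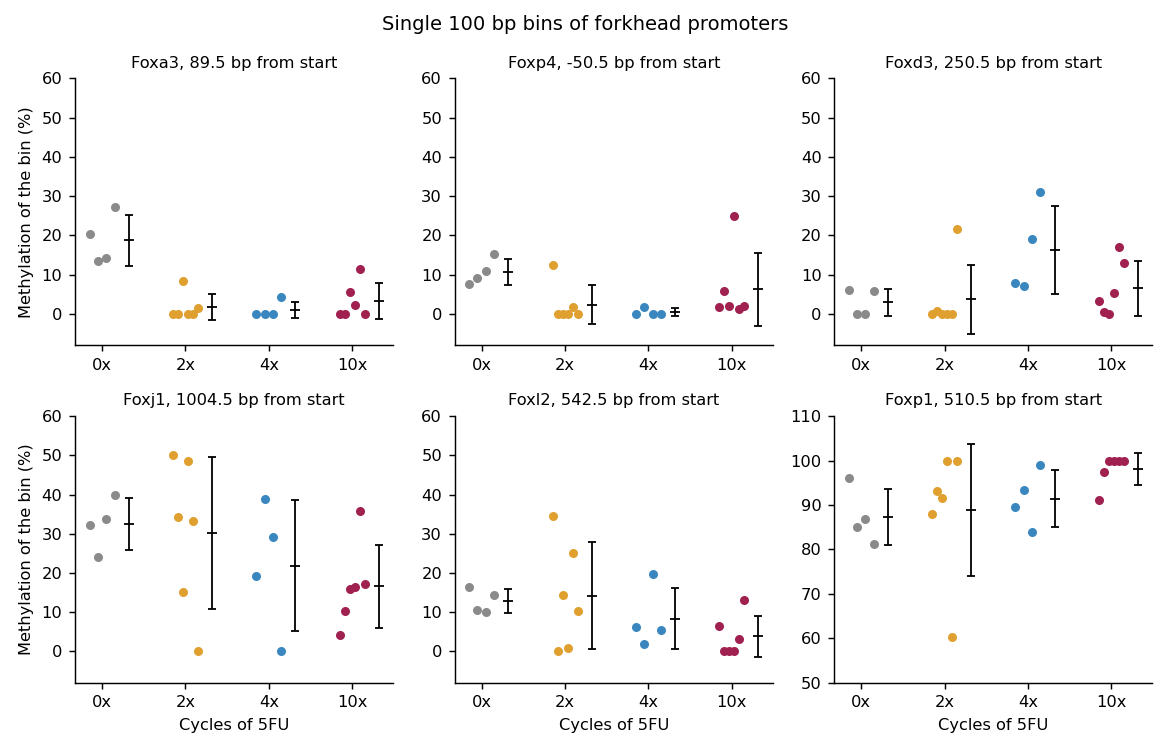
Methylation in percent (y axis) of 6 forkhead bins in each sample by 5FU group (x axis), titled by gene and distance of the bin's centre from the TSS, with points for samples and bars for the mean and SD. The axis of Foxp1 starts at 50%. Foxa3 lies at 13.4 to 27.3% in 0x and at most at 11.3% in the treated samples, while the 0x and 10x samples of the other bins overlap or nearly meet.

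Bins in which a treated group did not overlap with 0x were few, among the forkhead bins as among all tested promoter bins. After 2 cycles, 0 of the 151 bins lay wholly above 0x and 1 wholly below (Foxa3). After 4 cycles, 2 lay above (Foxd3 and Foxo3) and 2 below (Foxa3 and Foxp4). After 10 cycles, 2 lay above (Foxe3 and Foxp1) and 1 below (Foxa3). The shares of all tested promoter bins above and below 0x were 0.131% and 0.462% after 2 cycles, 1.11% and 0.736% after 4, and 0.614% and 0.477% after 10.

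The bins with repeated values were higher on average and their group means lay further apart. The 233 bins averaged 16% in both 0x and 10x, 15.5% in 2x and 15.6% in 4x. Between the highest and lowest group mean, the median gap was 6.39 points, against 4.03 in the tested bins, and 43 bins (18.5%) had a gap of at least 25 points, against 5 tested bins (3.31%). In 78 of them at least 1 group held a single value other than 0 or 100 in all its samples. The Foxo3 bin at -854.5 bp from the TSS was at 5.10% in all 0x samples, at 50% in all 2x samples and at 0 in all others. The Foxp1 bin 410.5 bp past a predicted TSS, next to the bin with 4 CpGs, was at 100% throughout 0x and 10x, at 0 throughout 2x and at 74.4% throughout 4x. In the developmental members, Foxi3, an ectodermal factor, had a bin at 100% in 0x, 0 in 2x and 30.8% in all samples of 4x and 10x. A Foxq1 bin was at 94.4% throughout 0x and at 0 throughout 2x. How many samples were measured in such bins cannot be read from the files.

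When all 529 forkhead bins that vary were tested with filled values in place, 34, 28, 23 and 13 were called after 2, 4 and 10 cycles and for the slope (6.43%, 5.29%, 4.35% and 2.46%). The same test called 14%, 9.96%, 10.8% and 7.62% of the 701483 varying bins genome-wide. The forkhead shares were below these, but those bins are not confined to promoters. The share over promoter bins alone was not computed for this test, so the lower shares are not read as a trait of forkhead genes. Of the 34, 28, 23 and 13 bins, 31, 25, 20 and 13 held repeated values, and 11, 12, 8 and 2 were constant in each of the 4 groups. Of promoters, 8, 3, 6 and 3 of the 39 were called, against 22%, 14%, 15.6% and 9.66% of all. Filling with a group mean makes the samples of a group alike, so these p-values do not measure the spread between samples. Of the 46 Foxo bins in this test, 1 was called in 2x, the Foxo3 bin at 50%, none in 4x or 10x, and 1 in the slope.

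Bins of Foxp2, Foxa3 and Foxp1 passed in sets that admit groups at 0 or 100 throughout. The set without repeated values called 2 of 299 forkhead bins in 2x and 1 in 4x, where 1.64% and 0.933% of all its bins were called. With repeated values set to missing, 3 and 1 of 419 forkhead bins were called, against 1.54% and 0.93% of all bins. The Foxa3 bin described above passed in 2x in both sets (limma's adjusted p = 0.0239 and 0.0255). Foxp2 had a bin at its TSS (0.5 bp) that ranged from 8.97 to 17.3% in 0x and was at 0 in all 10 samples of 2x and 4x, a difference of -13.2 points (limma's adjusted p = 0.000503 in 2x and 0.0164 in 4x). In 10x it ranged from 0 to 16%. The Foxp2 promoter was called in 2x in the set without repeated values, as were 2.65% of its gene promoters. A Foxp1 bin 936.5 bp past a TSS was at 100% throughout 0x and at 0 throughout 2x, with 10x back at 90.9 to 100%. Whether a group fixed at 0 or 100 was measured in every sample is unknown.

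Most promoters of genes around the Foxo factors were also low, and none was called. Of 18 listed regulators in the PI3K-Akt-Foxo pathway, such as the kinase Akt1, 17 had tested promoter bins, with a median of 3.12% in 0x. Of 24 listed Foxo targets, such as the cell cycle inhibitor Cdkn1b and the mitochondrial superoxide dismutase Sod2, 16 had tested bins, with a median of 2.69%. The regulators reached 18.1% at most, and among the targets the cell cycle inhibitor Cdkn1c was methylated at 43.8%. No regulator or target was called in any comparison. As a check of the labelled cell type, the 6 of 14 HSC marker promoters with tested bins lay between 0.547 and 6.35% in 0x, while the myeloid marker Mpo was at 48.3%. Markers of other cell types were not all methylated. The 3 erythroid promoters ranged from 3.65 to 28.3%, the 2 endothelial or epithelial ones were at 1.47 and 54.3%, and the T cell one was at 9.53%. The lists of T cell, myeloid, erythroid and endothelial or epithelial markers had 1, 1, 3 and 2 of 5 promoters with tested bins, and none of them was called in any comparison.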

How the data were processed

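RRBS of HSCs from 20 samples was used, in 4 groups of 0, 2, 4 and 10 cycles of 5FU taken from the sample titles. Per the labels, the authors used Trim Galore 0.4.3 for trimming, Bismark 0.23.1 for alignment (mm10) and methylKit 1.22.0 for averages over bins of 100 bp. The deposited values are percent methylation, with missing bins filled by the mean of the group, so part of the values of a group are not independent measurements. Per sample, the files give 1201951 bins and no read numbers, so no interval for counting error is given. The deposited files hold no comparison columns.

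Bin starts were read as 1-based, since 99.98% of 20033 bins checked on GRCm38 then held a CpG. Bins within 1000 bp of a RefSeq TSS were assigned to genes with Python 3.11.15, numpy 2.4.6 and pandas 2.3.3. Bins with a repeated value or a constant group were set apart, and the other 84131 were fitted with limma 3.58.1 in R 4.3.3 (values read by data.table, version 1.17.8) on the percent scale. Each treated group was fitted with 0x alone, and the slope over the number of cycles was fitted on all 20 samples. P-values were adjusted by the Benjamini-Hochberg method over all bins or over all 14937 gene promoters (means of the tested bins of a gene). A bin was called at an adjusted p under 0.05 and at least 10 points, a promoter at an adjusted p under 0.05. Figures were drawn with matplotlib 3.10.9.

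The named members were the Foxo genes, any member called, in each comparison up to 3 bins with the largest rise and 3 with the largest fall among those with an unadjusted p under 0.05, the promoter with the highest 0x level, the 3 with the widest 0x range, and the members with no tested bin. Other genes and bins were picked after their values were seen. The members and lists were chosen with earlier results of these data known. The fitting script was tested on simulated data. Alternatives were wider sets of bins, repeated values set to missing, bins holding the mean of the other samples left out, a window of 500 bp, a log2 ratio, no minimum difference, a mean-variance trend, a shared spread, the label series as a covariate and leaving out each sample. Curated transcripts alone and the set without Foxp1 were added after seeing the data. Some marker results are not reported here.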

Additional observations from a re-analysis of the deposited data

Results flagged for a closer look

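In 17 of 88 groups of 4 to 6 samples, 1 sample lay far from the others (Dixon's test). The rate of about 1 in 20 for this test holds for normally distributed values. In a group otherwise at 0, any single other value is flagged, so the count is not set against that rate. In most of the 17 groups the other samples were at or near 0. Among the Foxo promoters this was Foxo1 in 2x, at 3.87% in sample 16 and 0 in the others. Among the developmental members, the Foxf2 promoter was at 25.2% in 2x sample 04 (nearest 3.63%) and at 21.0% in 10x sample 31 (nearest 6.30%). The Foxa3 bin past the TSS was at 8.33% in 2x sample 15 and at 4.17% in 4x sample 20. The Foxa2 coding bin was at 3.45% in 2x sample 17, the Foxd3 bin at 21.7% in 2x sample 18 and the Foxe3 bin at 9.42% in 2x sample 03. The Foxk1 intronic bin was at 5.26% in 2x sample 17 and at 2.64% in 10x sample 11. The Foxp4 bin was at 12.3% in 2x sample 03, 1.84% in 4x sample 06 and 24.8% in 10x sample 32. In Foxp1, the promoter was at 44.3% in 10x sample 32 (nearest 37.6%). Its bin with 4 CpGs was at 60.3% in 2x sample 17 and 91.1% in 10x sample 11, both below the others, and its bin with 1 CpG was at 100% in 10x sample 32.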

How the results depend on the processing

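Of the values recomputed under the alternatives, 649 kept their direction and their side of the threshold or moved by less than the spread between samples, 18 moved further, 8 of single bins now passed the threshold and 7 reversed. No forkhead bin or promoter was called when any 1 sample was left out. Counts of called forkhead bins rose from 0 in the sets that admit constant or filled values. The set that admits groups at 0 or 100 gave 2 bins in 2x and 1 in 4x, and 1 promoter in 2x. It called 1.64% and 0.933% of all its bins and 2.65% of its gene promoters in those comparisons. Repeated values set to missing gave 3 bins in 2x and 1 in 4x, and the shared spread gave 1 in 2x. Of all bins, the former called 1.54% and 0.93%, and the latter 0.0321%. All deposited bins that vary gave 34, 28, 23 and 13 bins and 8, 3, 6 and 3 promoters after 2, 4 and 10 cycles and for the slope. The shares over all bins and all promoters in that setting are given in the Results. The mean 4x difference was -0.491 points with a window of 500 bp. The mean Foxo difference in 10x was -0.489 points in the wider set, -0.435 with repeated values missing and 0.337 over all deposited bins that vary. The cause was not tested. The Foxo1 difference in 10x reversed to 0.706 over all deposited bins, to 0.849 with repeated values missing and to 0.127 as a log2 ratio, and that of Foxo3 to 0.450 over all deposited bins and to 0.0147 with a window of 500 bp.

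With 1 sample left out, the mean differences ranged from -0.892 to -0.462 points after 2 cycles, from -0.116 to 0.555 after 4 and from -0.513 to -0.117 after 10. In 10x the Foxo mean ranged from -1.22 to -0.975 and the developmental mean from -0.674 to -0.198. The Foxo1 difference ranged from -1.22 to 1.05 and the Foxo3 difference from -0.706 to 0.271, both with their highest value without 0x sample 14. Without reads behind the values, depth and its limits on these differences are unknown.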
